A study of Mus musculus with 154 samples.

Results

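The carboxylesterases described here are 10 genes of mouse chromosome 8, namely Ces1c, Ces1d, Ces1e, Ces1f, Ces1g, Ces2a, Ces2c, Ces2e, Ces3a and Ces3b, chosen by symbol, and all 10 were among the 13289 genes of the count table. The table also held 4 carboxylesterase genes of that chromosome that were not chosen (Ces1b, Ces2b, Ces2g and Ces4a). RNA-seq measured the livers of male mice, 5 weeks old, from 24 strains. The study asked how the effect of one substituted chromosome on expression depends on another. Each strain was either C57BL/6J (B6) or an F1 hybrid heterozygous for 1 or 2 chromosomes of strain A/J on the B6 background, called a single or a double chromosome substitution strain (CSS), with the dam written first.

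The mice that carry a substituted chromosome 8 numbered 27 in 5 strains, all with a B6.A8 sire. They were 8 of (B6 x B6.A8)F1, 3 of (B6.A3 x B6.A8)F1, 6 of (B6.A6 x B6.A8)F1, 5 of (B6.A14 x B6.A8)F1 and 5 of (B6.A17 x B6.A8)F1. The 127 non-carriers were 20 B6 mice, 8 of each single CSS with chromosome 3, 6, 14 or 17 from the dam or chromosome 4 or 10 from the sire, 7 of the single CSS with chromosome 5 from the sire, and 52 mice of 11 double CSSs that pair chromosome 3, 6, 14 or 17 from the dam with chromosome 4, 5 or 10 from the sire. Every substituted chromosome is heterozygous and whole, so an A/J allele of a carboxylesterase cannot be told apart here from any other A/J allele on the same chromosome. All mice were fasted overnight, the same liver lobe was taken, and the cage, litter and flow cell of each library were not analysed here.

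Carboxylesterases are serine hydrolases of the endoplasmic reticulum that split ester, amide and carbamate bonds. In liver they clear drugs and other xenobiotics, and several of them hydrolyse stored triacylglycerol, diacylglycerol or cholesteryl ester, which feeds the assembly of very low density lipoprotein. The mouse family grew by tandem duplication, so that its genes stand in a row and resemble each other. The nuclear receptors PXR, CAR and PPAR alpha and the liver factor HNF4 alpha are known to act on members of the family.

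The genes form 2 clusters (mm10, GENCODE). The Ces1 genes and, at the far end, Ces5a lie on the minus strand between 93020214 and 93535830 of chromosome 8, and the Ces2, Ces3 and Ces4 genes lie on the plus strand between 104734003 and 105150109. Ces1c, the first Ces1 member, spans chr8:93099015-93131283, and Ces1b, its unlisted neighbour, spans chr8:93056728-93080017. Ces2a, the first gene of the other cluster, spans chr8:104734003-104741634.

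The duplications are visible just before the transcription starts. The 150 bases upstream of Ces1b (chr8:93080018-93080167, minus strand) and of Ces1c (chr8:93131284-93131433, minus strand), from RefSeq on GRCm38.p6 and printed 5′ to 3′, are shown because Ces1b was called higher in carriers of chromosome 8 and its neighbour Ces1c was not called. Capitals mark runs of at least 10 bases that both windows hold.
Ces1b: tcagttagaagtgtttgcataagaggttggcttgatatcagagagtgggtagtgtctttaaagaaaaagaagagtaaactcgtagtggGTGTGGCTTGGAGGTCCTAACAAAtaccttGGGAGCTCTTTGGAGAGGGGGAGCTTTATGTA
Ces1c: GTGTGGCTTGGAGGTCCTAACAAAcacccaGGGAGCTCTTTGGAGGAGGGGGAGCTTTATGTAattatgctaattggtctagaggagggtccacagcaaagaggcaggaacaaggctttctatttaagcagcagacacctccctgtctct
In Ces1b 56 of the 150 bases fell in 2 such runs, the longest of 32 bases. RefSeq promoter entries gave 2 starts for Ces1b, of which the one at the end of the annotated gene is shown. The place and number of the shared bases depend on that choice, because from the other start the likeness to Ces1c continues further.

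Ces2a (chr8:104733853-104734002, plus strand) and Ces2e (chr8:104926110-104926259, plus strand) are shown because Ces2a was the one listed gene called among carriers and Ces2e is a neighbour of the same subfamily that was not.
Ces2a: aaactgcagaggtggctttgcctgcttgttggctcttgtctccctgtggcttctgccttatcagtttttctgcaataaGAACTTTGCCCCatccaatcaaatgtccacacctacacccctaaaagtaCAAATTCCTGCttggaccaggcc
Ces2e: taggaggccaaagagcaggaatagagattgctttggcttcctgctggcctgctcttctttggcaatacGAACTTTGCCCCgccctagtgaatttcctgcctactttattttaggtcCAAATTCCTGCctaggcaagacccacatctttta
Here 23 of the 150 bases were shared in 2 runs, the longest of 12 bases. The letters of the core nuclear receptor half-site AGGTCA, searched on both strands, were in none of these 4 windows, and 8.58% of all 32851 RefSeq promoter windows of that length hold them. Those searched for a TATA box and for HNF1, HNF4 and FOXA sites were in none either. The letters of a C/EBP site (TTGCNNAA, N being any base) were in the windows of Ces1b, Ces2a and Ces2e, and 5.46% of all windows hold them. These are B6 reference sequences, and the A/J alleles were not analysed here. The set of RefSeq promoter entries used here held none for Ces1d, Ces1f and Ces3a.

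The likeness extends into the transcripts, which bears on counts from reads of 50 bases. Of all 50-base windows of the longest coding transcript, 13.4% of those of Ces1c and 10.8% of those of Ces1b occurred also in another carboxylesterase, mostly in each other. Ces3a shared 30.9% and Ces3b 26.1%, again mostly with each other, and Ces2c shared 40.2%, mostly with the pseudogene Ces2d-ps. The other listed genes shared between 0.533% (Ces1f) and 3.36% (Ces2e). Values of the Ces1b and Ces1c, Ces3a and Ces3b, and Ces2c genes are therefore uncertain by any reads that were split or dropped between copies.

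Counts per library ranged from 4638701 to 30465477, and the 10 genes together took between 0.286% and 0.637% of them. All 9 hepatocyte markers were in the table, with a summed level of 53985 to 154820 CPM, a count scaled to a common library size. Of the 6 adipocyte markers 1 was in the table, at 5.26 to 21.9 CPM, and of the 6 intestinal epithelium markers 2 were present. There was 1 of the 8 pancreas acinar markers, 4 of the 6 bile duct, 8 of the 8 Kupffer cell, 7 of the 7 endothelial, 8 of the 8 stellate and 5 of the 7 blood cell markers. In 1 mouse, of (B6.A14 x B6.A4)F1, the 4 Y-linked genes summed to 2.94 CPM although all mice are labelled male.

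In B6 the listed genes covered a wide range of levels. Divided by exonic length, Ces1c, a secreted esterase of plasma, stood at 797 ± 83.4 CPM per kb (SD, n = 20). Ces3a followed at 372.8 ± 78.3, Ces1d, the main triacylglycerol hydrolase of hepatocytes, at 241.4 ± 59.0 and Ces3b at 121.5 ± 22.6 CPM per kb. Ces2a, a hydrolase of drugs and acylglycerols, had 63.2 ± 29.9 CPM per kb, and Ces1f, a lipid hydrolase close to Ces1d, and Ces1g, an enzyme tied to lipoprotein secretion, were nearly level at 45.7 ± 17.7 and 45.3 ± 10.9.

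Ces1e, known as egasyn, which holds beta-glucuronidase in the endoplasmic reticulum, and Ces2e were also nearly level, at 36.7 ± 6.43 and 35.0 ± 9.05 CPM per kb. Ces2c was lowest, at 1.70 ± 1.06 CPM per kb. Of the 9 pairs of neighbours in this order, Ces1c and Ces3a did not overlap over the 20 mice, nor did Ces2e and Ces2c. The other 7 pairs overlapped, and within a mouse Ces1f exceeded Ces1g in 9 of 20 and Ces1e exceeded Ces2e in 10 of 20. All listed genes had at least 15 counts in every mouse except Ces2c, which had them in 152.

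Over the 24 strains the mean log2 CPM of a listed gene (normalised by the trimmed mean of M values, prior count 2) differed least for Ces1c and most for Ces2c. Ces1c ranged from 10.34 in (B6 x B6.A8)F1 to 11.01 in (B6.A17 x B6.A5)F1, a 1.58-fold difference in level. Ces2c ranged from 1.64 in (B6 x B6.A10)F1 to 3.43 in (B6.A17 x B6.A4)F1, 3.46-fold. For all 10 genes the SD between strain means was below the pooled SD within strains, for example 0.48 against 0.54 for Ces2a and 0.25 against 0.26 for Ces3b. The strain (B6 x B6.A8)F1 had the lowest mean of 5 listed genes (Ces1c, Ces1e, Ces1g, Ces3a and Ces3b), and (B6.A6 x B6)F1 had the highest mean of Ces1d, Ces1e and Ces1f.

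**Figure D1:**
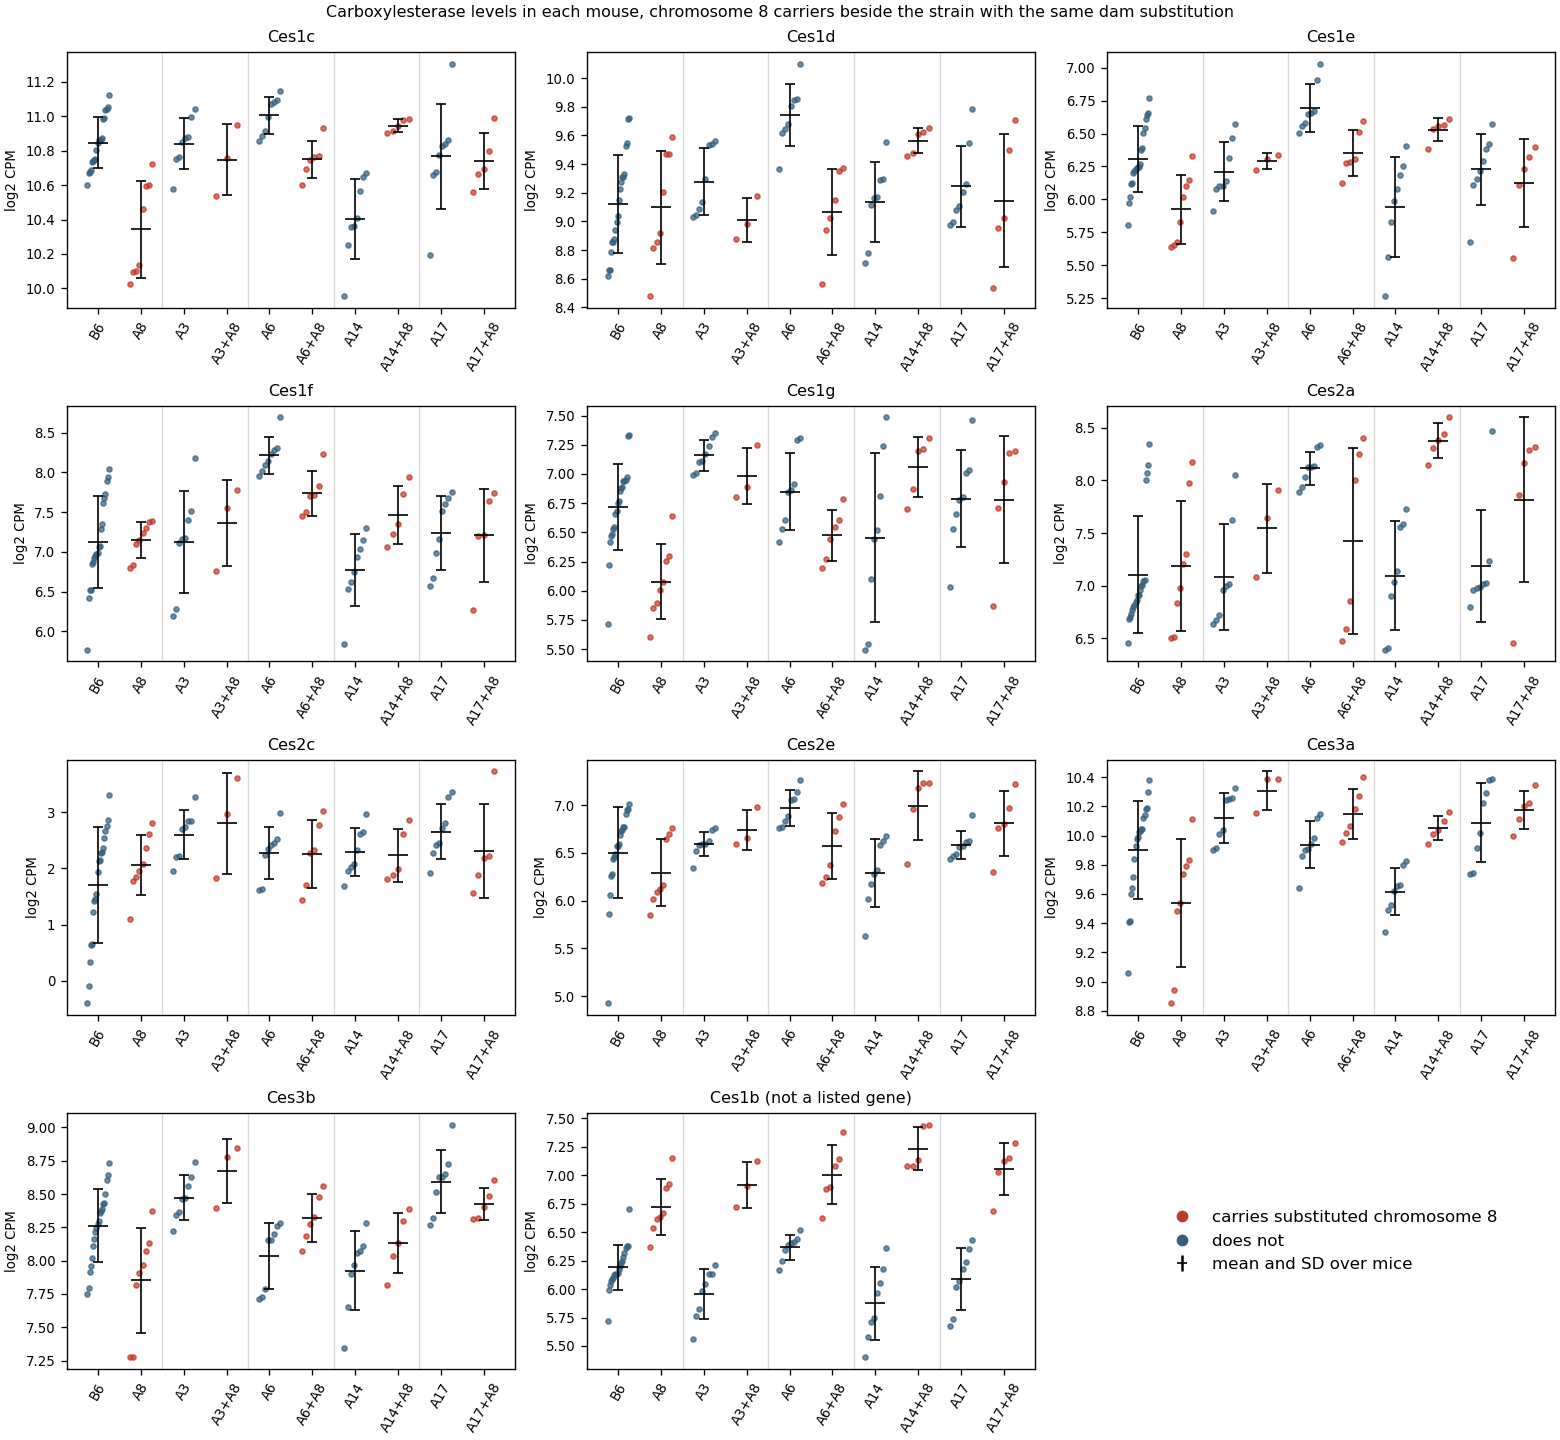
Level of each listed carboxylesterase and of Ces1b (y axis, log2 CPM) in every mouse of 10 strains, set in pairs that share the dam's substitution (x axis), with the mean and SD over mice in black. Ces1b is higher with substituted chromosome 8 (red) than without it (blue) in every pair, while Ces2a spreads widely within most strains.

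The comparison of carriers with non-carriers asked whether the A/J chromosome that holds these genes changed their own expression, averaged over backgrounds. Among the 10 listed genes 1 was called, Ces2a, which was higher. Over all genes 2.25% were called in either direction, and over the genes of chromosome 8 it was 17.2%, so that 1 of 10 is near the chromosome's background. The lowest, median and highest log2 CPM of Ces2a were 6.46, 7.91 and 8.60 in the 27 carriers and 6.39, 7.10 and 8.55 in the 127 non-carriers, so that the ranges overlapped nearly throughout. In plain log2 CPM, Ces2a in carriers differed from the matching strain by -0.69 with the A6 dam and 0.08 with the B6 dam. With the A3, A17 and A14 dams it differed by 0.46, 0.64 and 1.28. Averaged over backgrounds in the additive model, Ces2a was higher by a log2 fold change of 0.42 (SE 0.13, 95% interval 0.16 to 0.68, 1.34-fold, adjusted p = 0.015, edgeR quasi-likelihood F-test). The other 9 ranged from -0.08 (Ces1g) to 0.28 (Ces2c), with adjusted p from 0.199 to 0.958. The median log2 fold change of the 10 in the model was 0.08, beside -0.001 over all genes. In plain log2 CPM, with no adjustment for other chromosomes or surrogate variables, Ces2a (0.20) and Ces1f (0.01) were higher in carriers. The other listed genes were lower there, from -0.001 for Ces2c to -0.22 for Ces1g. Without the strain (B6 x B6.A8)F1, 3 of the 10 were called, all higher (Ces2a, Ces2e and Ces3a), and the share of all genes called was 4.99%.

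The intervals show how large an undetected average effect could be. For Ces1c the difference was -0.06 (95% interval -0.16 to 0.03 on the log2 scale), but with no surrogate variable (-0.135) or without (B6.A14 x B6.A8)F1 (-0.149) it was called lower, and Ces2a was not. The difference was 0.005 (-0.11 to 0.12) for Ces1e and, for Ces1d, 0.03 (-0.13 to 0.19). Ces3b differed by 0.04 (-0.10 to 0.18) and Ces3a by 0.12 (-0.004 to 0.25). The least certain was Ces2c, at 0.28 (-0.04 to 0.59). For Ces1f the value was 0.13 (-0.02 to 0.29) and for Ces2e 0.17 (0.0005 to 0.34). Neither was called, and Ces2a alone of the 10 had an unadjusted p under 0.05 (edgeR). The intervals are normal approximations and can differ slightly from the F-test, as for Ces2e.

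The gene of the family that changed most with chromosome 8 was not among the listed ones. Ces1b, the immediate neighbour of Ces1c, was higher in carriers by a log2 fold change of 0.91 (SE 0.06, 95% interval 0.79 to 1.02, 1.87-fold, adjusted p = 5.64e-29, edgeR), the third smallest p among the genes of chromosome 8. The lowest, median and highest log2 CPM were 6.37, 7.03 and 7.44 in the 27 carriers and 5.21, 6.13 and 6.86 in the 127 non-carriers. All 27 carriers lay above the non-carrier median and 19 lay above every non-carrier, although the ranges of the groups overlapped. In B6, Ces1b stood at 37.5 ± 5.25 CPM per kb (SD, n = 20), far below the 797 of Ces1c with which it shares sequence. The part of read sharing in this difference was not tested. The other unlisted genes Ces2b (0.22), Ces2g (-0.04) and Ces4a (0.05) were not called.

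Ces1b was called in each of the 5 backgrounds taken one by one. Its log2 fold changes were 0.74 with the B6 dam, 0.96 with the A3 dam, 0.66 with the A6 dam, 1.29 with the A14 dam and 0.99 with the A17 dam. In (B6.A3 x B6.A8)F1 the 3 mice had 6.91, 7.12 and 6.72 log2 CPM. In (B6.A14 x B6.A8)F1 the 5 mice had 7.43, 7.13, 7.44, 7.08 and 7.08, and in (B6.A17 x B6.A8)F1 they had 7.15, 7.12, 7.03, 7.29 and 6.69. With these dams, and with the A6 dam, no carrier overlapped a mouse of the matching single CSS. The share of all genes whose ranges did not overlap was 2.13%, 4.76%, 1.25% and 1.23% for the A3, A14, A17 and A6 dams. With the B6 dam the ranges overlapped, and 3 of 8 carriers lay above all 20 B6 mice.

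**Figure D2:**
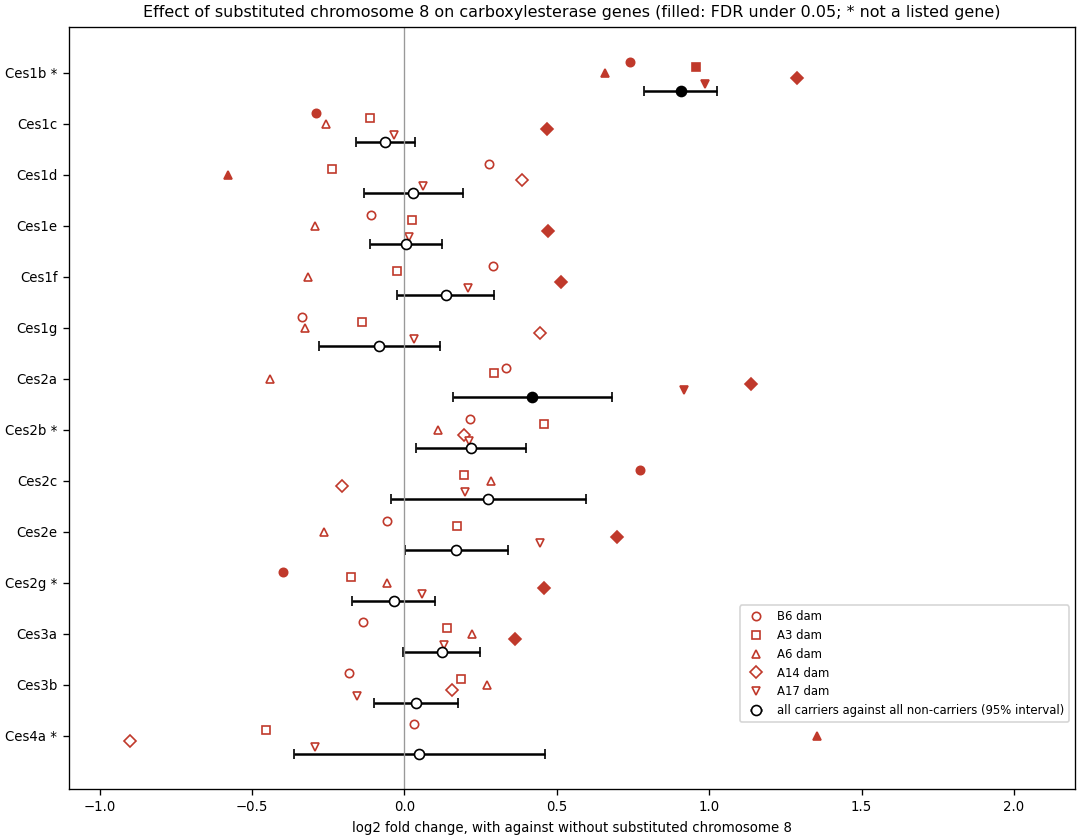
Log2 fold change of each carboxylesterase gene with against without substituted chromosome 8 (x axis), as 1 average over all carriers (black, with its 95% interval) and in each of the 5 dam backgrounds (red symbols, filled where the adjusted p is under 0.05). Ces1b is filled throughout, the average of Ces2a is filled, and the symbols of most other genes lie on both sides of 0.

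The level of Ces2a was divided into a lower and an upper band of mice. Over all mice the widest gap between neighbouring values lay between 7.38 and 7.495 log2 CPM, with 85 mice below it (6.39 to 7.38) and 69 above it (7.495 to 8.60). The gap was 0.116 wide and the next widest 0.0699, so the bands lie close at their edges, and this split was chosen after the values were seen. In B6, 16 mice had between 6.46 and 7.06 log2 CPM and 4 had between 8.001 and 8.34. Mice of both bands occurred in 16 strains, 5 strains were wholly in the upper band and 3 wholly in the lower.

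The carriers were spread over both bands too. In (B6 x B6.A8)F1, 2 of 8 mice were in the upper band, in (B6.A3 x B6.A8)F1 2 of 3, in (B6.A6 x B6.A8)F1 3 of 6, in (B6.A14 x B6.A8)F1 5 of 5 and in (B6.A17 x B6.A8)F1 4 of 5. That makes 16 of 27 carriers and 53 of 127 non-carriers. In (B6.A14 x B6.A8)F1 the Ces2a values were 8.44, 8.31, 8.60, 8.15 and 8.38 log2 CPM. In (B6.A17 x B6.A8)F1 they were 7.86, 8.16, 8.32, 8.29 and 6.46, and in (B6.A3 x B6.A8)F1 7.08, 7.91 and 7.65. The average effect of chromosome 8 on Ces2a was no longer called without replicate 3 of (B6.A14 x B6.A8)F1 (log2 fold change 0.36, adjusted p = 0.051, edgeR) or without that whole strain (0.22, adjusted p = 0.291, edgeR). It was not called either with no surrogate variable (0.32, adjusted p = 0.059, edgeR) or when p-values were adjusted over all genes (adjusted p = 0.067, edgeR).

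The bands of Ces2a were set beside Cyp3a11, a cytochrome P450 on chromosome 5 that is the standard reporter of PXR in mouse liver. Cyp3a11 was the gene outside the family whose strain means were most like those of Ces2a, with a Pearson correlation of 0.943 over 24 strains and 0.909 over all mice after each strain's mean was removed. In B6 the 16 mice in the lower band of Ces2a had 9.80 to 11.04 log2 CPM of Cyp3a11, and the 4 in the upper band had 12.87 to 13.19. Over all mice Cyp3a11 overlapped between the bands, at 9.10 to 12.97 in the lower and 11.54 to 13.60 in the upper. The lower band of Ces2a held 2 mice of (B6 x B6.A8)F1 with 12.97 and 12.57 log2 CPM of Cyp3a11 and 1 of (B6.A14 x B6.A4)F1 with 12.25. The bands were cut on Ces2a itself, which narrows its range and by that alone lowers a correlation within them. There the correlation, with strain means kept, was 0.477 over the 85 lower mice and 0.623 over the 69 upper ones. These values share library and depth, and Ces2a correlated at -0.291 with log2 total counts over all mice.

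The other reporter genes followed Ces2a less closely. Within strains the correlation with Ces2a was 0.552 for Cyp2c29 and 0.296 for Cyp2b10, both known to respond to CAR. It was -0.327 for Cyp4a10 and -0.339 for Cyp4a14, which respond to PPAR alpha, and 0.179 for Cyp1a2 and 0.119 for Nqo1, which respond to AHR and NRF2. The second gene most like Ces2a was Gstm1, a glutathione transferase, at 0.858 over strain means and 0.813 within strains. Cyp3a11 itself differed between carriers and non-carriers by 0.72 (SE 0.27), which was not called (adjusted p = 0.169, edgeR).

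**Figure D3:**
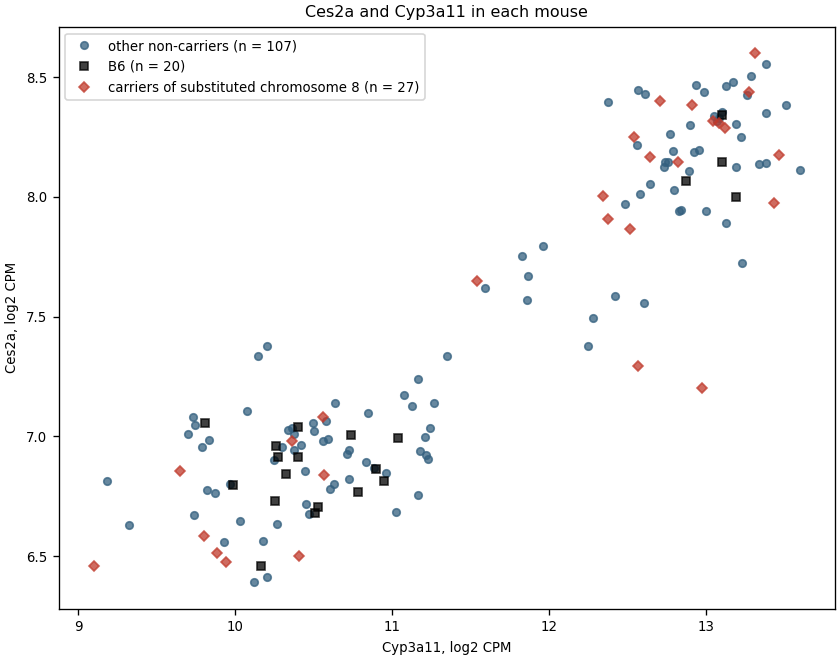
Ces2a (y axis, log2 CPM) against Cyp3a11 (x axis, log2 CPM) with 1 point per mouse, with B6 as black squares, carriers of substituted chromosome 8 as red diamonds and other non-carriers as blue circles. Mice low for Ces2a mostly had low Cyp3a11, with exceptions that include 2 carriers, and both bands of Ces2a hold B6 mice, carriers and non-carriers.

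The single CSS (B6 x B6.A8)F1 was compared with B6 to give the main effect of chromosome 8. In the full model 2 of the 10 listed genes were called, while 29.6% of all genes and 34.4% of those on chromosome 8 were. Ces1c was lower (log2 fold change -0.29, SE 0.08, adjusted p = 0.003) and Ces2c higher (0.77, SE 0.30, adjusted p = 0.035, edgeR). Of the unlisted genes Ces1b was higher, and Ces2g was lower (-0.40, SE 0.12, adjusted p = 0.005, edgeR).

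The size and number of these differences depended on the surrogate variables, which are estimated axes of unwanted variation. In the plain log2 CPM values Ces1c had a lowest, median and highest value of 10.03, 10.30 and 10.72 in (B6 x B6.A8)F1 and 10.60, 10.85 and 11.12 in B6. Of the 8 mice 6 lay below all 20 B6 mice, and none lay above the B6 median. The difference of the means was -0.50 (two-sided exact permutation test over 3108105 arrangements, p = 3.86e-06). By the same exact test Ces1g differed by -0.64 (p = 0.000257), Ces1e by -0.38 (p = 0.00138), Ces3b by -0.41 (p = 0.00418) and Ces3a by -0.37 (p = 0.0233).

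Ces2a differed by 0.08 (exact permutation p = 0.745), Ces2c by 0.36 (p = 0.361), Ces2e by -0.21 (p = 0.282), Ces1d by -0.02 (p = 0.893) and Ces1f by 0.02 (p = 0.918). These p-values are not adjusted over the 14 genes of the family that were tested. The summed hepatocyte markers were lower as well in these mice, with a median of 117306 CPM (99934 to 154820) for the B6 mice and 77952 CPM (53985 to 108169) for the single CSS. Their part in the lower carboxylesterase levels was not tested, and in bulk liver fewer cells of a type and less RNA per cell cannot be told apart. With no surrogate variable 5 of the 10 genes were called, all lower, and with 10 surrogate variables 1 was, which was higher. The share of all genes called for this main effect under those settings was not computed. These counts therefore cannot be read as a result about the listed genes.

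Whether the effect of chromosome 8 depended on the dam's chromosome was asked by the 4 interaction terms, the departure of a double CSS from the sum of its single CSSs on the log2 scale. Of the 40 combinations of listed gene and cross 7 were called, beside 18.4% of all combinations of gene and cross, so that the listed genes were near the background. In A14:A8 5 of 10 listed genes were called, all higher, beside 32.4% of all genes in both directions and 18.1% higher. They were Ces1g (0.78, SE 0.28), Ces1c (0.76, SE 0.13), Ces2e (0.76, SE 0.24), Ces1e (0.58, SE 0.16) and Ces3a (0.50, SE 0.18), with adjusted p from 7.94e-07 to 0.024 (edgeR). With 10 surrogate variables the call of Ces1c alone was kept among these, and the values of Ces1g (0.12), Ces2e (0.10), Ces1e (0.24) and Ces3a (0.15) were lower. The call of Ces3a was also lost with the stricter count filter and without replicate 4 or 5 of (B6.A14 x B6.A8)F1 or replicate 4 of (B6.A17 x B6.A8)F1, and that of Ces1g without replicate 2 or 4 of (B6.A17 x B6.A8)F1. The unlisted Ces2g (0.86) and Ces1b (0.55) were also higher, Ces2g not with 10 surrogate variables. In A6:A8 2 of 10 were called, both lower, beside 24.8% of all genes in both directions and 11.4% lower. These were Ces1d (-0.85, SE 0.21, adjusted p = 0.001) and Ces1f (-0.61, SE 0.21, adjusted p = 0.026, edgeR). Ces1f was not called with no surrogate variable (-0.40) or with 10 (-0.58).

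In A3:A8 and A17:A8 none of the 10 was called by edgeR, beside 7.56% and 8.68% of all genes, with 1 and 2 at an unadjusted p under 0.05 and none by DESeq2. Over the other 11 interactions none of 110 combinations was called by edgeR, beside 1.45% of all combinations of gene and cross, with 19 at an unadjusted p under 0.05 and 1 called by DESeq2.

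For Ces1c both single CSSs of A14:A8 were low and the double was not. It had 10.98, 10.94, 10.90, 10.98 and 10.91 log2 CPM in the 5 mice of (B6.A14 x B6.A8)F1. The single (B6.A14 x B6)F1 ranged from 9.96 to 10.67 with a median of 10.39, so that the 2 strains did not overlap, and (B6 x B6.A8)F1 had a median of 10.30. The double CSS was thus near the B6 median of 10.85. Ces2e had 7.23, 7.23, 7.17, 6.38 and 6.96 in the double CSS, medians of 6.30 and 6.15 in the singles and 6.59 in B6. The hepatocyte markers moved the same way in this cross, with a median of 114748 CPM for the double CSS. It was 89355 CPM for the A14 single and 77952 CPM for the A8 single. In A14:A8, 5 of the 9 were called higher (Cps1 by 1.33), beside 18.1% of all genes. In A6:A8, 5 of the 9 were also called higher and none lower, beside 13.4% of all genes higher. There the called Ces1d and Ces1f were lower instead. The part of the hepatocyte markers in the interactions was not tested.

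Set directly against the matching single CSS, (B6.A14 x B6.A8)F1 had 6 of 10 listed genes called, all higher, beside 8.12% of all genes higher. Of the genes on chromosome 8, 21.9% were called in either direction. Ces2a differed most (1.14, SE 0.27), followed by Ces2e (0.70, SE 0.18), Ces1f (0.52, SE 0.17), Ces1e and Ces1c (both 0.47) and Ces3a (0.36, SE 0.14). With 10 surrogate variables Ces2e (0.31), Ces1f (0.43), Ces1e (0.28) and Ces3a (0.17) were not called. Ces1f was also lost with the stricter count filter and without replicate 5 of (B6.A14 x B6.A8)F1. Ces3a was lost in 9 of 20 alternatives, among them leaving out any one of replicates 2, 3, 4 and 5 of that strain, replicate 2 or 4 of (B6.A17 x B6.A8)F1, and adjusting over all genes. In the same comparison 2 hepatocyte markers were called higher, and 2 Kupffer cell, 2 endothelial (Clec4g by -0.70) and 2 stellate cell markers lower, as were the adipocyte marker Fabp4 and the acinar marker Cela1. Their part was not tested. In the plain values Ces1c, Ces2a and Ces3a did not overlap between the 5 and the 8 mice, beside the 4.76% of all genes given above. With the A17 dam Ces2a was the 1 listed gene called (0.92, SE 0.29, adjusted p = 0.039, edgeR), beside 0.369% of all genes and 5.07% of those on chromosome 8. That call was lost when any one of replicates 1, 2, 3 and 4 of (B6.A17 x B6.A8)F1 was left out, under DESeq2, with no or 10 surrogate variables, and when p-values were adjusted over all genes.

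With the A6 dam Ces1d was the 1 listed gene called, at -0.58 (SE 0.17, adjusted p = 0.014, edgeR), beside 1.47% of all genes and 8.25% of those on chromosome 8. Of the unlisted genes Ces1b was called there, as above, and Ces4a, a gene of low counts, was higher by 1.36 (SE 0.42, adjusted p = 0.022, edgeR), a call lost with 10 surrogate variables and when adjusted over all genes. For Ces1d the lowest, median and highest values were 8.56, 9.09 and 9.37 log2 CPM in the 6 mice of (B6.A6 x B6.A8)F1. They were 9.37, 9.74 and 10.10 in the 8 of (B6.A6 x B6)F1, so that the ranges met at their ends and overlapped slightly. With the A3 dam, where the double CSS had 3 mice, none of the 10 was called by edgeR or DESeq2, none had an unadjusted p under 0.05, and 0.188% of all genes were called. The 4 comparisons of a double with a single CSS use the same surrogate variables and estimate of the spread.

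The main effects of the chromosomes that do not hold these genes were compared next. Over these 7 effects 10 of 70 combinations of listed gene and chromosome were called, 9 higher and 1 lower, beside 8.41% of all combinations. Chromosome 6 gave 5 of the 10 calls, with 5 of 10 listed genes higher and none lower, beside 8.09% of all genes in both directions and 4.30% higher. They were Ces1f (0.89, SE 0.12, 1.85-fold), Ces2a (0.81, SE 0.20), Ces1d (0.69, SE 0.12), Ces2e (0.44, SE 0.13) and Ces1e (0.39, SE 0.09), with adjusted p from 1.30e-07 to 0.027 (edgeR). The call of Ces2e was lost with the stricter count filter.

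Ces1f had a lowest, median and highest value of 7.95, 8.19 and 8.69 log2 CPM in (B6.A6 x B6)F1 and 5.77, 7.03 and 8.05 in B6. All 8 mice of (B6.A6 x B6)F1 were in the upper band of Ces2a, at 7.89 to 8.34 log2 CPM. The reporters Cyp2b10 (1.65), Cyp3a11 (1.52) and Cyp2c29 (0.49) were called higher in the same strain, 3 of the 9 measured, and none was called lower. Of 12 other esterases and hydrolases of xenobiotics, 7 were called higher there, among them Ephx1 (0.37), the microsomal epoxide hydrolase, Afmid (0.34) and the paraoxonase Pon3 (0.29). Of the 14 receptors and factors, Hnf4a (-0.28) and Nr1i2 (-0.27), which encodes PXR, were lower and Nr3c1 (0.15), the glucocorticoid receptor, was higher. The 9 hepatocyte markers divided, 1 higher and 1 lower, and their summed median was 113059 CPM.

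Chromosome 4 had Ces2c (1.11, SE 0.26) and Ces1d (0.41, SE 0.13) higher, 2 of 10 beside 13.5% of all genes, and the call of Ces1d was lost with no or 10 surrogate variables and with the stricter count filter. Chromosome 14 had Ces2c higher (0.73, SE 0.27) and Ces1c lower (-0.29, SE 0.08), 2 of 10 beside 22.5%. Ces2c was not called with no surrogate variable (0.35), nor Ces1c with 10 (-0.20). Chromosome 10 had Ces1f higher (0.48, SE 0.13), 1 of 10 beside 6.64%, but without surrogate variables its value was -0.05. By edgeR none of the 10 was called for chromosomes 3, 5 and 17, beside 3.70%, 0.768% and 3.67% of all genes. At an unadjusted p under 0.05 there were 4, 2 and 2, and DESeq2 called 0, 0 and 1. All 8 main effects share the 20 B6 mice as their reference.

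**Figure D4:**
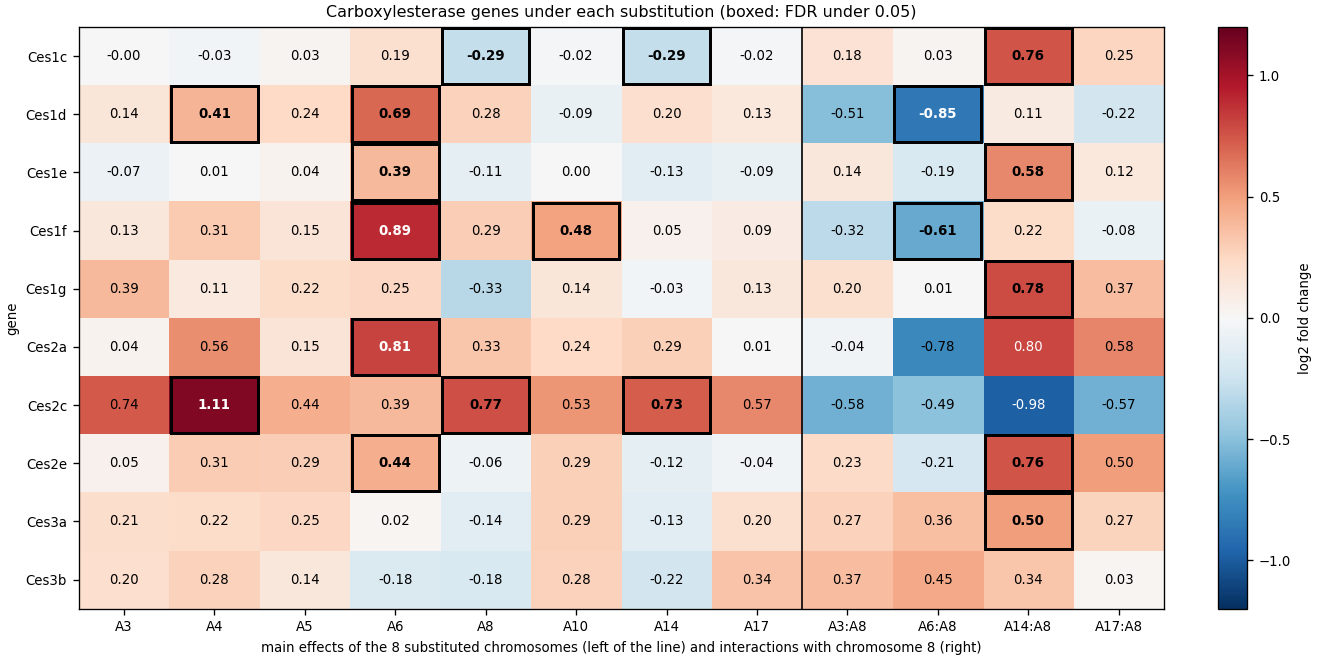
Log2 fold change (colour and number) of the 10 listed genes (rows) for the main effects of the 8 substituted chromosomes and the 4 interactions with chromosome 8 (columns), boxed where the adjusted p is under 0.05. Boxes gather in A6 and A14:A8, and the chromosome 8 column holds 2.

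The genes around the clusters were compared in the same way. Within 1 Mb of the Ces1 cluster 3 of 14 other genes (21.4%) were called in carriers, beside the 17.2% of genes on chromosome 8, all lower, namely the metallothioneins Mt2 (-0.53, SE 0.16) and Mt1 (-0.49, SE 0.15), and Lpcat2 (-0.30, SE 0.09), a lysophospholipid acyltransferase. None of the 3 was called without (B6 x B6.A8)F1 (Mt2 -0.44, Mt1 -0.33, Lpcat2 -0.17), and Mt2 was lost when adjusted over all genes. Within 1 Mb of the other cluster 1 of 42 (2.38%) was called, Tradd (0.16, SE 0.05), an adaptor of the tumor necrosis factor receptor, a call lost with no surrogate variable, when adjusted over all genes and without (B6.A17 x B6.A8)F1. Ces1b was thus the one gene called higher in or near the first cluster, and Ces2a and Tradd were those in or near the second.

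**Figure D5:**
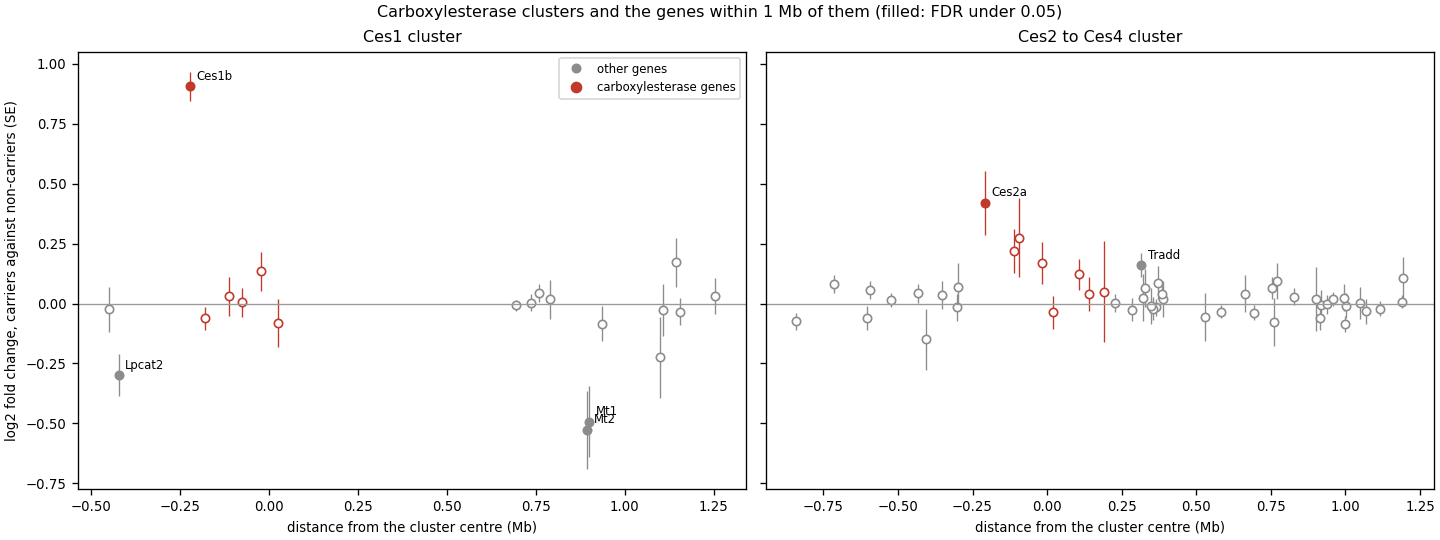
Log2 fold change of carriers against non-carriers with its SE (y axis) for the carboxylesterase genes (red) and other genes within 1 Mb (grey), by distance from the centre of each cluster in Mb (x axis), filled where the adjusted p is under 0.05. Ces1b at 0.91 and Ces2a at 0.42 stand above the other genes of their clusters.

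Genes that share pathways with the carboxylesterases were taken from lists. In carriers none of the 24 measured genes of triacylglycerol hydrolysis and lipid droplets was called by edgeR, with 6 at an unadjusted p under 0.05 and 1 called by DESeq2, and their median log2 fold change was -0.04. Of 14 genes of triacylglycerol synthesis and lipoprotein assembly 2 were called, both higher. These were Sort1 (0.31, SE 0.06), the sorting receptor sortilin, and Pdia3 (0.17, SE 0.05), a protein disulfide isomerase. Sort1 was not called without (B6.A14 x B6.A8)F1 (0.18). Pdia3 was not called with no surrogate variable (0.052), without replicate 2 of (B6.A3 x B6.A8)F1 (0.14), or without the A3, A6 or A17 double CSS. None of the 12 other xenobiotic hydrolases, the 14 receptors and factors or the 9 receptor reporters was called by edgeR or DESeq2, with 1 at an unadjusted p under 0.05 in each list.

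None of the 9 hepatocyte markers was called in carriers by either tool, with 2 at an unadjusted p under 0.05. Of the 8 Kupffer cell markers C1qa was lower (-0.15, SE 0.04; not called without replicate 3 of (B6.A3 x B6.A8)F1, or without the A3 or A17 double CSS), 7 of 8 had an unadjusted p under 0.05, and the median of the list was -0.13. None of the measured endothelial, stellate, bile duct, adipocyte, intestinal, acinar, blood cell or Y-linked genes was called by either tool, with 2, 0, 1, 1, 0, 0, 0 and 0 at an unadjusted p under 0.05.

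Correlations between the listed genes were mostly positive. Over the 45 pairs the correlation of strain means was positive in 43, with a median of 0.505, and within strains it was positive in 42, with a median of 0.387. Pairs of one subfamily had a median of 0.649 over strain means and 0.531 within strains, and pairs of different subfamilies 0.390 and 0.340. The lowest pair was Ces2a and Ces3b, at -0.132 over strain means and -0.0944 within strains. All genes of a mouse share its library, and correlations between copies can include shared reads. No such correlations were computed for pairs of other genes, so these values cannot be set against a background.

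Outside the family, up to 2 genes were named for each listed gene by the likeness of their strain means. For Ces1c they were Aldh8a1 (0.921) and Cd81 (0.905), for Ces3a Gjb1 (0.912) and Acsl1 (0.904), and for Ces2e Ephx1 (0.890) and the zinc transporter Slc39a4 (0.871). Within strains, Slc39a4 kept 0.816 with Ces2e while Ephx1 had 0.351. For Ces3b they were Gulo (0.867) and C8b (0.864), for Ces1f Hes6 (0.857) and Nqo2 (0.833), and for Ces1g Msra (0.852) and Umps (0.806). For Ces1e Acsm5 (0.843) is given, for Ces1d they were Gstt1 (0.828) and Dus1l (0.809), and for Ces2c Pgrmc1 (0.798) and Paqr9 (0.731). Each is a Pearson correlation over 24 strain means that share depth and tissue makeup, given as a description.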

How the data were processed

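Raw counts per gene were deposited by the authors, who aligned stranded single-end total RNA reads with TopHat2 to mm10, aligned the remaining reads to a genome carrying A/J variants, and counted with HTSeq. Replicates were not pooled. The members and gene lists were chosen with earlier results of these data known.

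Counts of all 13289 genes were fitted with edgeR 4.0.16 (quasi-likelihood F-test, trimmed mean of M values) in R 4.3.3, with 5 surrogate variables from sva 3.50.0. The full model held 8 main effects and 15 interactions, and carriers were compared with non-carriers in the additive model. P-values were adjusted (Benjamini-Hochberg) separately for genes on and off the substituted chromosome, with a threshold of 0.05. They measure the spread between mice, which may share cages. DESeq2 1.42.0, other scalings, filters and surrogate variables, and refits without single mice or strains were tried, the last with the dispersion trend of all mice. The carrier comparison was tested on simulated counts that held no other strain effects, interactions or unwanted variation. The main effects, interactions and comparisons of double with single CSSs were not tested in that way. Positions and lengths came from GENCODE M21. Named genes were the 10 members, the other carboxylesterases, at most 3 called genes per list or cluster, and the 2 most alike per member, of which 1 is not reported here. The bands of Ces2a and the correlations of the reporters with it were added after values were seen. Totals of 4638701 to 30465477 counts set the precision.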

Additional observations from a re-analysis of the deposited data

Results flagged for a closer look

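Of 220 sets of mice of 1 strain for 1 listed gene, 19 held a mouse that stood far from the others of its strain in log2 CPM, and chance gives about 1 in 20. For Ces2a these were the highest mouse of (B6.A17 x B6)F1 (8.47), of (B6.A14 x B6.A10)F1 (8.30) and of (B6 x B6.A5)F1 (8.51), and the lowest of (B6.A17 x B6.A8)F1 (6.46) and of (B6.A6 x B6.A5)F1 (6.86). In that last strain the lowest mouse of Ces2e (6.35) stood apart too, and it was the same mouse.

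For Ces1d they were the highest mouse of (B6 x B6.A4)F1 (9.90) and the lowest of (B6.A6 x B6.A4)F1 (8.43) and (B6.A14 x B6.A5)F1 (8.71). The same mouse of (B6.A6 x B6.A4)F1 was also lowest in Ces1e (6.12), and that of (B6.A14 x B6.A5)F1 also in Ces1f (6.71). Another mouse of (B6.A14 x B6.A5)F1 had the lowest Ces2c (0.68). One mouse of (B6.A6 x B6.A10)F1 was highest in both Ces2c (3.43) and Ces3b (9.20). The others were the highest Ces2e of (B6.A17 x B6)F1 (6.90), the highest Ces3a of (B6 x B6.A5)F1 (10.46), the lowest Ces3a of (B6.A14 x B6.A4)F1 (8.20) and (B6.A17 x B6.A10)F1 (9.62), and the lowest Ces1f of (B6.A17 x B6.A4)F1 (6.64). The (B6.A14 x B6.A4)F1 mouse with the lowest Ces3a was the mouse with almost no Y-linked counts. It was also the mouse of that strain in the lower band of Ces2a.

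The effect of chromosome 8 differed between dam backgrounds by the interaction test of edgeR for 9 genes of the family. With chromosome 14 these were 5 of the 10 listed and 2 of the 4 unlisted genes, beside 32.4% of all genes. With chromosome 6 they were 2 of the 10 listed and none of the 4 unlisted genes, beside 24.8% of all genes. With chromosome 14 the interaction was 0.76 for Ces1c, 0.58 for Ces1e, 0.78 for Ces1g, 0.76 for Ces2e, 0.50 for Ces3a, 0.55 for Ces1b and 0.86 for Ces2g on the log2 scale. With chromosome 6 it was -0.85 for Ces1d and -0.61 for Ces1f. With 10 surrogate variables the calls of Ces1e, Ces1g, Ces2e, Ces3a, Ces2g and Ces1f were lost.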

How the results depend on the processing

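No paired analysis was possible because the replicate numbers follow accession order and are not in the labels, so a number shared by strains marks no shared litter, cage or day. The count of listed genes called in carriers was 1. It was 0 when p-values were adjusted over all genes and 3 without the strain (B6 x B6.A8)F1, and between 0 and 1 when single mice were left out, with 0 without replicate 3 of (B6.A14 x B6.A8)F1. The share of all genes called moved from 2.25% to 14.6% with no surrogate variable, 4.97% with at least 15 counts in 75% of mice, 4.99% without (B6 x B6.A8)F1 and 1.04% without (B6.A17 x B6.A8)F1. With no surrogate variable the main effect of chromosome 8 had 5 listed genes called and its interactions 13. With 10 surrogate variables these counts were 1 and 3, and the comparisons of double with single CSSs had 3 in place of 8. Leaving out single mice gave 2 to 4 for the main effect, 4 without replicate 3 of (B6.A3 x B6.A8)F1. For the main effect, the interactions and the comparisons of double with single CSSs, the share of all genes called under these settings was not computed. Those counts have no background beside them. Ces1b was called in carriers under all 26 alternatives tried for it. The cause of these shifts was not tested.

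Values that were not called, and 1 that was, changed sign in some settings. With no surrogate variable, carriers differed by -0.095 for Ces1d, -0.098 for Ces1e, -0.033 for Ces3b and -0.11 for Ces4a on the log2 scale, the main effect of chromosome 8 was -0.013 for Ces1d, -0.067 for Ces1f and -0.21 for Ces4a, and that of chromosome 10, called for Ces1f in the reported fit, was -0.050. With 10 surrogate variables Ces1e in carriers was -0.0039, and the main effect was 0.043 for Ces1e, 0.018 for Ces1g, 0.21 for Ces2e and 0.028 for Ces3a. With the stricter count filter it was -0.066 for Ces4a. Without (B6 x B6.A8)F1, carriers differed by 0.0078 for Ces1c, -0.027 for Ces1d, 0.030 for Ces1g and 0.088 for Ces2g. Without (B6.A14 x B6.A8)F1 the values were -0.071 for Ces1d and -0.11 for Ces1e, and without (B6.A6 x B6.A8)F1 it was -0.078 for Ces4a. The mean of the 5 matched backgrounds was -0.018 for Ces1d and -0.052 for Ces4a. When single mice were left out, carriers ranged from -0.019 to 0.031 for Ces1e and from -0.015 to 0.11 for Ces4a, and the main effect from -0.089 to 0.025 for Ces2e and from -0.057 to 0.12 for Ces4a.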
